A study of Homo sapiens with 11 samples.

Results

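Heterotrimeric G proteins carry signals from receptors of the cell surface to enzymes and channels inside the cell. An activated receptor makes the alpha subunit exchange GDP for GTP, and the alpha subunit and the paired beta and gamma subunits then act on separate targets. Regulators of G-protein signaling (RGS proteins) speed up GTP hydrolysis by the alpha subunit and so shorten the signal. Alpha subunits fall into the Gs class, which activates adenylyl cyclase, the Gi class, which inhibits it, and the Gq class, which activates phospholipase C beta, and a further class is named after G12. In the urothelium, muscarinic, purinergic and adrenergic receptors signal through these proteins.

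The members were the genes whose symbol in the probe annotation is that of an alpha, beta or gamma subunit or of an RGS protein, 52 of the 14941 named genes of the array, with 62 of its 22464 probes. They comprised 16 genes for alpha, 5 for beta and 11 for gamma subunits and 20 RGS genes. RefSeq names 55 genes under the same rule, and GNG10, GNG14 and RGS21 had no probe assigned. The rule used names and no measured value. GNAQ, GNG11, GNA15 and RGS14 were however named with the gene group when it was proposed, with results of these arrays known, so that their own changes are not independent evidence of a pattern.

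RNA had been taken from RT4 cells, a line from a human bladder papilloma, and hybridized as Cy3-labeled cDNA to 11 one-color arrays. On 9 arrays the cells had been moved from plastic onto a gel of Matrigel, a basement membrane extract that the study uses as cancer-remodeled extracellular matrix (crECM), for 12 h or for 1, 2, 3, 4, 6, 7, 8 or 9 days. On 2 arrays they had been kept on plastic. The medium, McCoy's with 10% fetal calf serum, is given for the gels alone, and harvest with Matrisperse is likewise described for the time course. Each time point was a single array, so the 9 crECM arrays are not replicates of one time, nothing says that the plastic arrays came from separate cultures, and p-values measure only the spread between these arrays.

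Values are the authors' log10 of the number of noise SDs above the zero point of the array, so that 1 stands for 10 SD and 0 for 1 SD. Spots at the bottom of the scale of an array carry a constant, its lowest value, which lay between -5.98 and -3.52 on crECM and was -2.51 and -2.39 on plastic. The median raw intensity of the spots at that value was between 12.1 and 44.0 on crECM and was -18.6 and -24.7 on plastic. Over all spots the median raw intensity ranged from 224 to 482 on crECM and was 162 and 140 on plastic. A value of 3 SD corresponded to a raw intensity between 52.2 and 136 on crECM and to 13.7 and 9.85 on plastic, and low values are therefore given with their raw intensities. For the lowest value, the median intensity and the intensity at 3 SD, neither plastic array fell within the range of the crECM arrays, so that array handling and substrate cannot be told apart. Keratins KRT7, KRT18 and KRT19 and the uroplakins UPK1A and UPK2 were above 10 SD on all 11 arrays, and the uroplakin UPK3B was above 3 SD on all of them. KRT20 and the uroplakin UPK3A were under 3 SD on 7 and 4 of the 9 crECM arrays. A mean of at least 5 SD on crECM or plastic was reached by 14 of 15 urothelial and epithelial markers, by 10 of 10 blood cell markers, by 7 of 10 fibroblast and muscle markers and by 35 of 37 olfactory receptors, so this threshold does not separate the cell types.

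By the same threshold 50 of the 52 members (96.2%) were expressed, against 92.1% of all named genes. The exceptions were GNG8, a gamma subunit known from olfactory neurons, and GNG5, a widely expressed gamma subunit whose probe was at the lowest value on all 11 arrays. GNG5 had raw intensities between -51.8 and 55.8 on crECM and of -6.4 and -18.1 on plastic, and it was not tested. The other 51 members were tested, and 40 of the 52 were above 3 SD on every array.

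**Figure D1:**
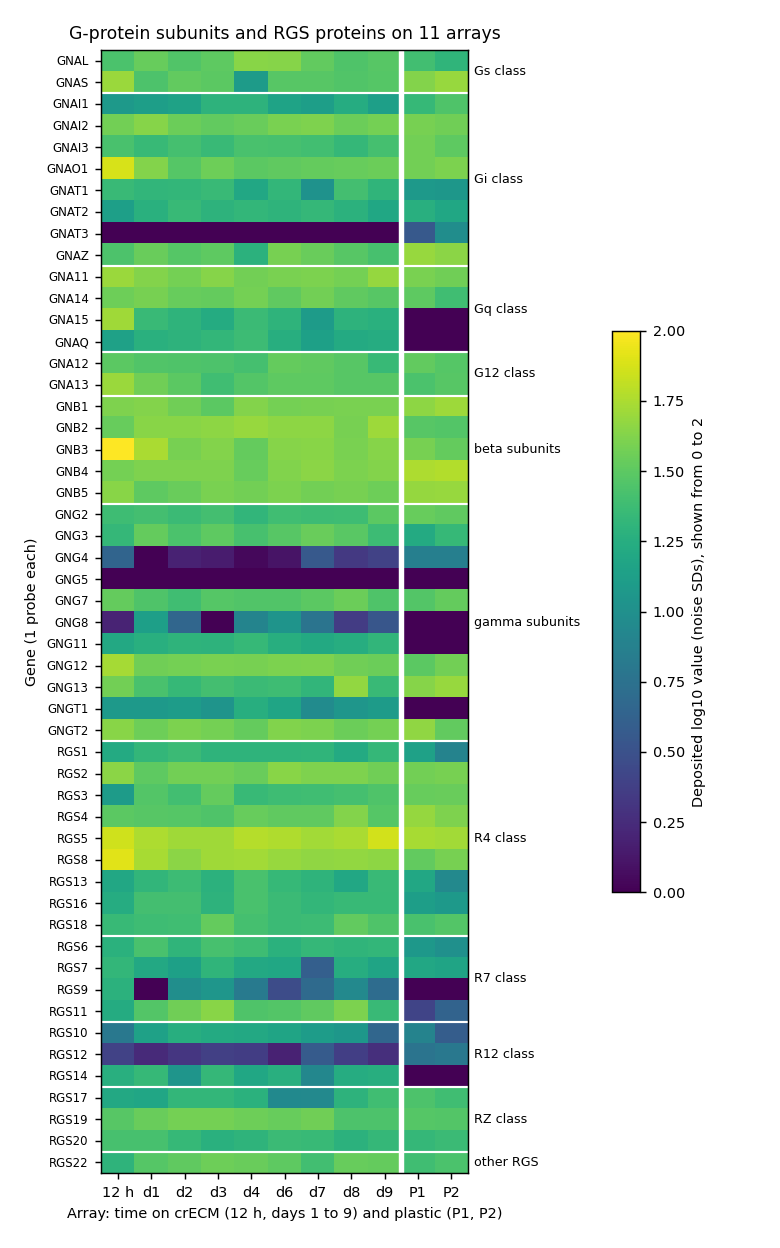
Deposited log10 values (color, noise SDs, shown from 0 to 2) of the 52 members, 1 probe for each gene, on the 9 crECM arrays in order of time and on plastic arrays P1 and P2. Rows are grouped by class; GNA15, GNAQ, GNG11, GNGT1 and RGS14 are light on crECM and dark on plastic, and GNG5 is dark on all 11 arrays.

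For the comparison of crECM with plastic, a floor of 3 SD was applied, and 21480 probes that exceeded it on 2 or more arrays entered a limma fit of log2 values, with Benjamini-Hochberg adjustment over all of them. A change is the log2 difference, crECM minus plastic, and a member is called higher or lower at an adjusted p under 0.05. Among the 51 tested members, 16 were higher (31.4%, against 24.2% of the 14517 named genes tested) and 12 were lower (23.5%, against 20.1%), and 23 were not called. The median change was 0.12 over the members and 0.09 over all named genes tested. All 9 crECM arrays lay above both plastic arrays for 12 members (22.3% of all genes) and below both for 12 (22.1%). Rebuilding the values from raw intensities moved the median change of all probes to 0.50 with the regression step and to 1.27 without it, against 0.06, and the members then split into 24 higher and 6 lower with it and 40 higher and 0 lower without it. The excess of higher over lower calls thus depends on the scaling.

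**Figure D2:**
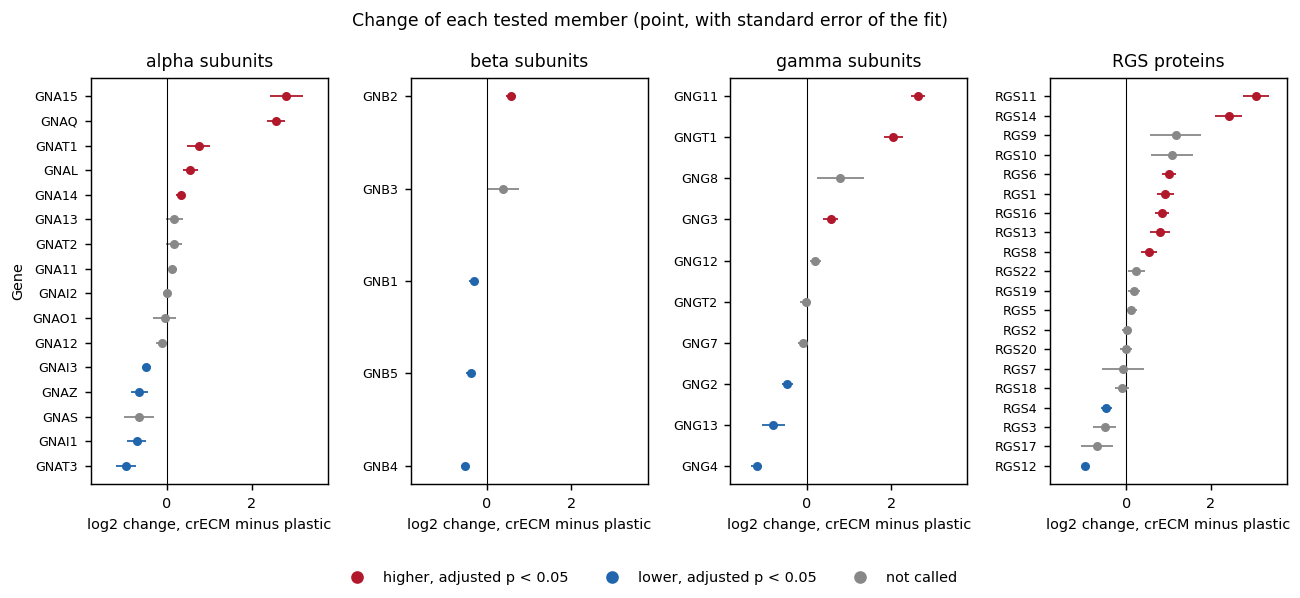
Log2 change (crECM minus plastic, x axis) of the 51 tested members by family, with the standard error of the fit as a bar and the call as color. RGS11, GNA15, GNG11, GNAQ, RGS14 and GNGT1 stand at 2.05 or more, and GNG4 has the lowest change, -1.18.

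The study's thresholds for off-on genes, a mean value under 0 on plastic and over 1 on crECM, were applied to all named genes, without the study's prior selection of genes by their variance. They were met by 5 members, GNAQ, GNA15, GNG11, GNGT1 and RGS14 (9.62% of 52, against 3.96% of the 14941 named genes). Of these, 4 are the genes named with the group beforehand. The opposite class, on-off, held 0 members and 0.335% of named genes. On crECM each of the 5 off-on members was above 3 SD on all 9 arrays, from 12 h on, and on both plastic arrays each was at the lowest value. Every fold change for these genes is a lower bound set by the floor of 3 SD.

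GNAQ, the alpha subunit for which the Gq class is named, had values between 1.13 and 1.37 on crECM, with a median of 1.25, against the lowest value on both plastic arrays. Its raw intensity ranged from 152 to 444 on crECM and was -12.3 and -26.1 on plastic. The groups did not overlap on either scale, and GNAQ was at least 5.92-fold higher on crECM, a log2 change of 2.57 (standard error 0.22, adjusted p = 2.3e-06 by limma). Within the array its raw intensity ranked between percentiles 29.5 and 51.3 on crECM and at 6.11 and 5.76 on plastic.

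GNA15, a Gq-class alpha subunit known from blood-forming cells and some epithelia that couples to a wide range of receptors, had values between 1.10 and 1.71 on crECM, with a median of 1.30, against the lowest value on plastic. The raw intensities were 143 to 466 on crECM, and -38.4 and -55.7 on plastic. It was at least 7.05-fold higher, with a log2 change of 2.82 (standard error 0.38, adjusted p = 0.00013), and its highest value was that at 12 h. GNA11, the Gq-class subunit closest in sequence to GNAQ, showed no such step. Its values were 1.57 to 1.70 on crECM, with a median of 1.61, and 1.60 and 1.57 on plastic, with overlapping groups and a log2 change of 0.12 (standard error 0.11, adjusted p = 0.4). GNA14, the fourth gene of the class, had 1.48 to 1.59 on crECM and 1.50 and 1.39 on plastic, a log2 change of 0.32 (adjusted p = 0.041) that was no longer called without plastic replicate 2 (0.13). The Gq class thus had 3 of 4 members higher, against 24.2% of all named genes, but GNAQ and GNA15 were among the genes named with the group beforehand.

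GNG11, a gamma subunit of many tissues, varied least over time among the 5, with values between 1.21 and 1.34 on crECM, a median of 1.26, and the lowest value on both plastic arrays. Its raw intensity was 169 to 425 on crECM, and 1.0 and -38.8 on plastic. The log2 change was 2.64, at least 6.21-fold (standard error 0.17, adjusted p = 1.6e-07). GNGT1, the gamma subunit of transducin in rod photoreceptors, had values between 0.97 and 1.26 on crECM, with a median of 1.08, against the lowest value on plastic. The raw intensities were 111 to 367 on crECM, and -53.2 and -58.5 on plastic. GNGT1 was higher by a log2 change of 2.05, at least 4.15-fold (standard error 0.22, adjusted p = 2.2e-05), and 1 of its 9 crECM values was under 1, that of day 7. RGS14, an RGS protein of the R12 class that also binds Gi alpha subunits in their GDP form, had values between 0.93 and 1.34 on crECM, with a median of 1.26, against the lowest value on plastic. Its lowest crECM value was again that of day 7, which had with 12 h the lowest median raw intensities of the crECM arrays (250 and 224). The raw intensities were 103 to 452 on crECM, and -6.6 and -40.5 on plastic, and the log2 change was 2.42, at least 5.35-fold (standard error 0.33, adjusted p = 0.00013).

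RGS11 had the largest change among the members but was outside the off-on class. RGS11 belongs to the R7 class, whose proteins work as dimers with the beta subunit GNB5 and are best known from neurons and retina. Its values ranged from 1.23 to 1.65 on crECM, with a median of 1.46, and were 0.41 and 0.63 on plastic. The raw intensity was 177 to 770 on crECM, and 11.4 and 15.2 on plastic, with no overlap. The change was at least 8.35-fold, since 1 plastic array was under 3 SD (log2 change 3.06, standard error 0.31, adjusted p = 1.2e-05).

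**Figure D3:**
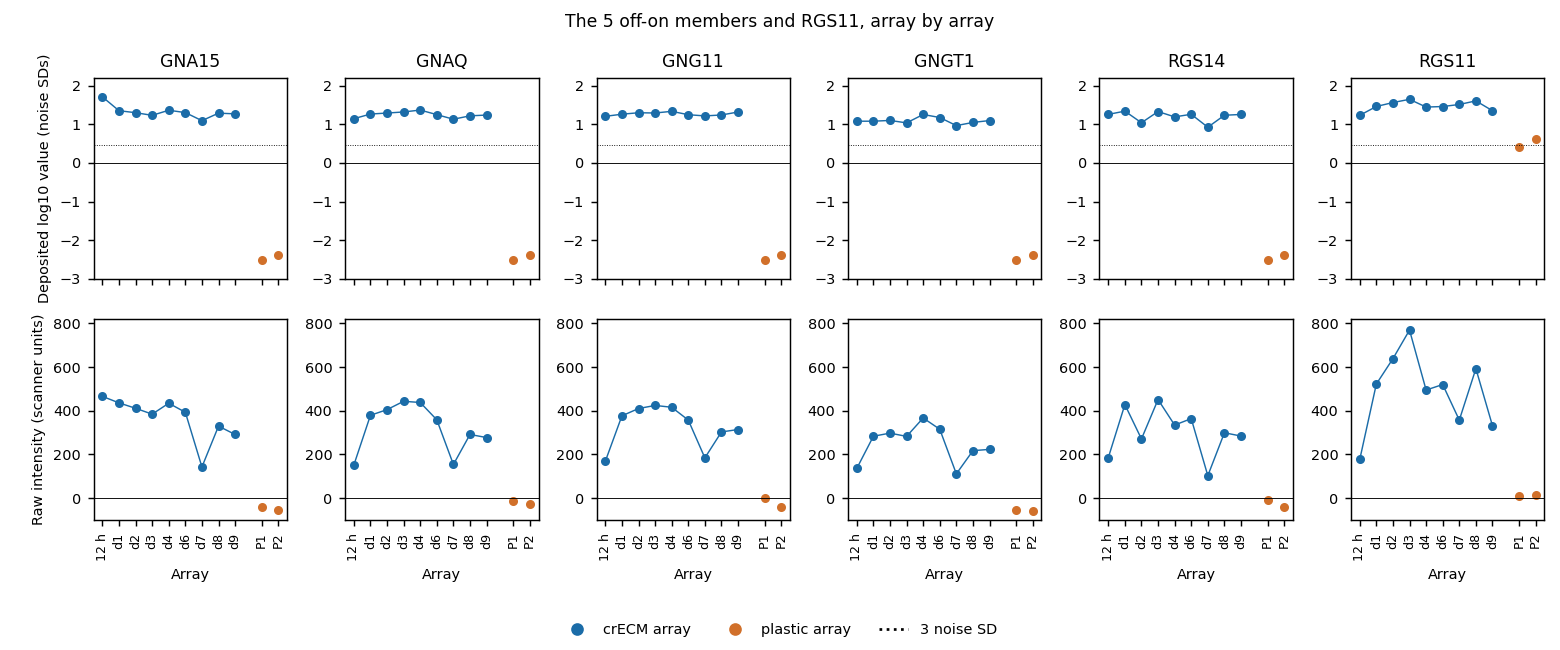
Values of the 5 off-on members and of RGS11 on the 9 crECM arrays in order of time (blue) and on plastic arrays P1 and P2 (orange), as deposited log10 values in noise SDs (top) and raw intensities in scanner units (bottom); the dotted line is 3 SD. On plastic the 5 off-on members are at the lowest value of the array, with raw intensities between -58.5 and 1.0.

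The calls of 8 higher members, GNAQ, GNA15, GNG11, GNGT1, RGS14, RGS11, RGS6 and GNB2, held under all 12 alternatives, among them raw intensities with quantile normalization and leaving out either plastic array. Over these alternatives the log2 change lay between 1.36 and 4.15 for GNAQ, 1.59 and 4.40 for GNA15, 1.42 and 4.22 for GNG11, 0.89 and 3.64 for GNGT1, 1.23 and 4.00 for RGS14, and 2.09 and 3.32 for RGS11. For the 5 off-on members, leaving out a plastic array could not alter the log2 change, since both plastic arrays were at the floor. The other filters and, with a single probe each, the mean of all probes could not alter it either. When either plastic array was left out, RGS16 also kept its call, so that 9 of the 16 higher calls held, and of the 12 lower calls those of GNB4, GNG4 and RGS12 held. The off-on class itself was less stable, since it held 1 member with values rebuilt from raw intensities with the regression step, 4 without that step and 0 after quantile normalization.

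GNGT1 and GNG11 are next to each other on chromosome 7, on the same strand and without overlap of their gene spans in RefSeq, and both belong to the off-on class. Among the 10 pairs of members that RefSeq lists as neighboring protein-coding genes and that were both tested, 5 pairs were called in the same direction, 0 in opposite directions, 4 had 1 gene called and 1 pair none. Over the 10232 neighboring pairs of all named genes tested, 10.4% were called in the same direction and 9.11% in opposite directions. Besides GNGT1 and GNG11 the pairs that moved together were GNAQ with GNA14 on chromosome 9 and RGS1 with RGS13 and RGS16 with RGS8 on chromosome 1, all higher, and GNAI1 with GNAT3 on chromosome 7, both lower. GNG11 and GNAQ were among the genes named with the group beforehand, so their pairs are not independent evidence of a pattern. GNAT3 was under 3 SD on all 9 crECM arrays, with raw intensities that overlapped those on plastic. Of the 5 pairs, GNGT1 with GNG11 was the only one with both calls left when plastic replicate 2 was left out (2.00% of all pairs), and 3 pairs, also GNA14 with GNAQ and RGS1 with RGS13, were left without plastic replicate 1 (3.32%). Neighbors share no probe in the annotation, and the pairs share the same 11 arrays.

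The promoters of the neighboring pair and of RGS14 are shown because these genes are in the off-on class. They are taken from RefSeq (GRCh38.p14), 250 bases before to 50 bases after the gene start, 5′ to 3′ on the plus strand, with the first transcribed base in capitals. GNGT1 lies at chr7:93906317-93906616, GNG11 at chr7:93921485-93921784, 15168 bases further on, and RGS14 at chr5:177357674-177357973.
GNGT1: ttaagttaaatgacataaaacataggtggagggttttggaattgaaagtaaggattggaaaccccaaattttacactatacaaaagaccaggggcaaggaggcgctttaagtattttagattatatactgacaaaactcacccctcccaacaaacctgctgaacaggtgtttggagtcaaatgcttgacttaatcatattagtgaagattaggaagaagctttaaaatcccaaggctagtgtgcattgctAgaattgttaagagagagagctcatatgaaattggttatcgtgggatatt
GNG11: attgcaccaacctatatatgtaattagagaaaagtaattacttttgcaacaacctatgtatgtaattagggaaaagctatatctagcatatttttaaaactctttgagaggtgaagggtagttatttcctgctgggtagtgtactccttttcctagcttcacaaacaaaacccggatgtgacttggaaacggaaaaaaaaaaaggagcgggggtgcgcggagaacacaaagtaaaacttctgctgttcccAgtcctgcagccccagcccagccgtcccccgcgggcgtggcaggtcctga
RGS14: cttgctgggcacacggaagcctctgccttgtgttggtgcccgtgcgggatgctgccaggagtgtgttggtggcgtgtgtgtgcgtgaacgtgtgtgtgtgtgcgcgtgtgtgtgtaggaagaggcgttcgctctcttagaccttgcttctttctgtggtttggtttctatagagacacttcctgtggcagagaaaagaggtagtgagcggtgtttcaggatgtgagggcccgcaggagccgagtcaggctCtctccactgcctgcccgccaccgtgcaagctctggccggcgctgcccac
These 3 windows held none of the motifs searched on both strands, the cAMP response element TGACGTCA, its part TGACG, which the full element contains, and the GC box GGGCGG. Of the 44 members with a promoter in the table, 2 held the full element, GNAO1 and GNG7, 10 the short one and 25 the GC box. Over all 27305 promoters the shares were 1.98%, 25.01% and 44.6%. GNAQ, GNA15 and RGS11 have no entry in the table.

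Alpha subunits of the other classes changed by smaller amounts. Of 8 Gi-class members, 4 were lower and 1 higher, against 20.1% and 24.2% of all named genes tested. GNAI1 and GNAI3, inhibitors of adenylyl cyclase found in most tissues, had values of 1.08 to 1.29 and 1.34 to 1.42 on crECM, against 1.34 and 1.45 for GNAI1 and 1.57 and 1.50 for GNAI3 on plastic. Their log2 changes were -0.72 (adjusted p = 0.019) and -0.49 (adjusted p = 0.0036), and neither was called with values rebuilt from raw intensities. GNAI1 was not called without plastic replicate 2 (-0.53), and GNAI3 was not called without plastic replicate 1 (-0.38). GNAI2, another such inhibitor, was not called (log2 change -0.01, standard error 0.10). GNAZ, a Gi-class subunit of brain and platelets, fell by 0.65 on the log2 scale (adjusted p = 0.022), whereas GNAT1, the rod transducin alpha subunit, rose by 0.74 (adjusted p = 0.047) with overlapping groups. Both calls were lost when either plastic array was left out, with changes of -0.59 and -0.72 for GNAZ and of 0.77 and 0.71 for GNAT1. GNAT2, of cones, was not called (0.16). GNAT3, the alpha subunit of taste cells, was under 3 SD on all 9 crECM arrays, against 0.56 and 0.98 on plastic, but its raw intensities, 31.0 to 76.6 on crECM and 16.1 and 45.0 on plastic, overlapped.

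GNAO1, an alpha subunit abundant in neurons, was measured by a pair of probes that disagreed. The main probe, with the higher mean, had values of 1.47 to 1.88 on crECM, with a median of 1.54, and 1.57 and 1.61 on plastic, and was not called (log2 change -0.06, standard error 0.27). The second probe had 1.44 to 1.59 on crECM and 1.21 and 1.15 on plastic, without overlap, and was higher (log2 change 1.15, standard error 0.14). In the Gs class, GNAL, the alpha subunit of olfactory neurons and striatum, was higher (log2 change 0.55, adjusted p = 0.029) but not when either plastic array was left out (0.69 and 0.41), and the ubiquitous GNAS had a change of -0.67 at 1 probe and 0.61 at the other, neither called. The G12-class members GNA12 and GNA13 were not called (log2 changes -0.13 and 0.17). A second GNA13 probe was at the lowest value on all 9 crECM arrays and at 0.86 and 0.60 on plastic, and was lower (log2 change -0.84). Of the 9 members with several probes, the calls differed for 5 and the signs for 6.

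Beta subunits, which are shared by many alpha subunits, were all above 3 SD on every array. Of the 5, 3 were lower and 1 higher, against 20.1% and 24.2% of all named genes tested. GNB4 had values of 1.54 to 1.65 on crECM, with a median of 1.61, against 1.76 and 1.77 on plastic, and it was lower without overlap (log2 change -0.52, standard error 0.08, adjusted p = 0.00046). Of the 12 lower members it kept its call in the largest number of alternatives, 11 of 12; without the regression step its change was 0.32. GNB1 and GNB5 fell by 0.31 and 0.38 on the log2 scale and were no longer called when either plastic array was left out (-0.39 and -0.24 for GNB1, -0.39 and -0.36 for GNB5), and the second GNB5 probe was not called (-0.01). GNB2 had values of 1.54 to 1.71 on crECM, with a median of 1.66, and 1.48 and 1.47 on plastic, a log2 change of 0.57 (standard error 0.12, adjusted p = 0.0029). It kept its call throughout, but only just without plastic replicate 2 (0.55). GNB3, a beta subunit of cone photoreceptors that is also found in other tissues, had 1.53 to 2.08 on crECM, with a median of 1.64, and 1.59 and 1.53 on plastic, and was not called (0.39).

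Among 10 tested gamma subunits, 3 were higher and 3 lower, against 24.2% and 20.1% of all named genes tested. GNG3, of neurons, joined GNG11 and GNGT1 as higher (log2 change 0.57, adjusted p = 0.025) with overlapping groups. GNG2 and GNG13, a widely expressed gamma subunit and one of taste and retinal cells, fell by 0.45 and 0.78 on the log2 scale, and GNG13 did so with overlapping groups. These 3 calls were lost when either plastic array was left out, with changes of 0.38 and 0.75 for GNG3, -0.41 and -0.49 for GNG2, and -0.88 and -0.69 for GNG13. GNG4 had values between -0.05 and 0.64 on crECM, with a median of 0.19, and 0.86 on both plastic arrays. Its change of -1.18 (standard error 0.14, adjusted p = 3.5e-05) is at least 2.27-fold, because 7 of 9 crECM arrays were under 3 SD. The raw intensities ran the other way, 57.8 to 95.7 on crECM against 37.3 and 30.7 on plastic, while the rank within the array was lower on crECM, percentiles 11.5 to 17.0 against 24.3 and 23.5. GNG12 and GNGT2 had the highest means among the gamma probes. GNG12 had 1.55 to 1.73 on crECM, with a median of 1.59, and 1.50 and 1.58 on plastic (log2 change 0.21, not called), and GNGT2, of cones, had 1.53 to 1.64 on crECM, with a median of 1.58, and 1.67 and 1.52 on plastic (-0.02, not called). GNG7 was not called at its first and second probes (-0.08 and 0.06), and its last probe, with raw intensities of 10.4 to 52.3 on crECM and 33.5 and 42.2 on plastic, was lower (-1.38). GNG8 ranged from -5.94 to 1.13 on crECM and was at the lowest value on plastic (0.80, not called).

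**Figure D4:**
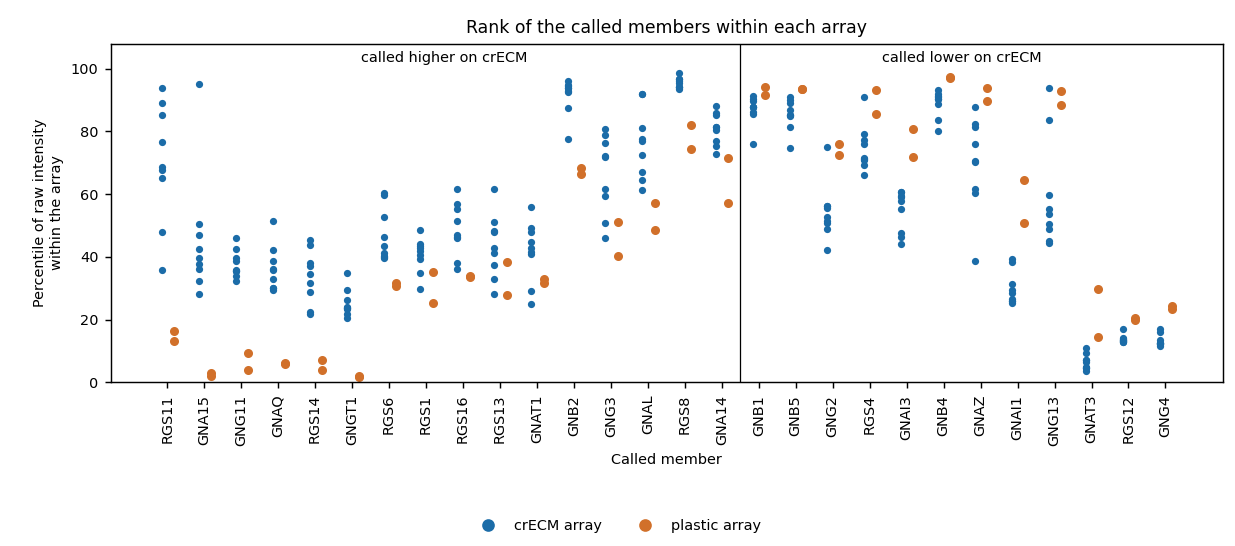
Percentile of the raw intensity within its array (y axis) for the 16 members called higher and the 12 called lower, with crECM arrays in blue and plastic arrays in orange to the right of them. The 5 off-on members rank between 20.5 and 95.0 on crECM and between 1.58 and 9.33 on plastic; GNG4, RGS12 and GNAT3 rank low in both.

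Of the 20 RGS members, 7 were higher and 2 lower, against 24.2% and 20.1% of all named genes tested. In the R7 class, RGS6 joined RGS11, with values of 1.28 to 1.43 on crECM, a median of 1.32, and 1.07 and 1.01 on plastic. The groups did not overlap and the change was 2.00-fold (log2 change 1.00, standard error 0.16, adjusted p = 0.00046). Over the 12 alternatives the log2 change of RGS6 lay between 0.43, after quantile normalization, and 1.77, so its size depends on the scaling. RGS7 was not called (log2 change -0.08, standard error 0.49). RGS9, known from photoreceptors and striatum, had values between -0.23 and 1.29 on crECM, against the lowest value on plastic, and was not called (1.17, standard error 0.60). GNB5, the partner of these proteins, was lower, as given above. In the R12 class, RGS14 was higher, RGS10 was not called (1.09, standard error 0.49) and RGS12 was lower. RGS12 had values of 0.19 to 0.57 on crECM and 0.77 and 0.80 on plastic, with raw intensities of 58.8 to 122 on crECM and 28.4 and 25.4 on plastic, and its change of -0.98 (adjusted p = 2.7e-06) shares the limit given for GNG4.

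The R4 class, small RGS proteins that act on Gi and Gq subunits, had 4 higher and 1 lower of 9. Over all named genes tested the shares were 24.2% and 20.1%. RGS1 and RGS13, known from lymphocytes, rose by 0.92 and 0.80 on the log2 scale (adjusted p = 0.0038 and 0.02), and both were no longer called without plastic replicate 2 (0.50 and 0.38). RGS16, which is induced by many stimuli in other cells, had 1.24 to 1.43 on crECM and 1.12 and 1.07 on plastic (log2 change 0.83, adjusted p = 0.0018). RGS8, a neuronal member, had 1.66 to 1.91 on crECM, with a median of 1.69, and 1.52 and 1.59 on plastic (0.53, adjusted p = 0.033), and its second probe, with the same direction (0.54), was not called. The main RGS8 probe was not called when either plastic array was left out (0.42 and 0.64). RGS4, of brain and heart, was lower by 0.48 (adjusted p = 0.011) with overlapping groups, and was not called without plastic replicate 1 (-0.37). RGS5, known from pericytes and vessels, had the highest mean of the RGS probes, 1.71 to 1.86 on crECM, with a median of 1.75, and 1.74 and 1.72 on plastic, and was not called (0.12, standard error 0.13). RGS2, a regulator that prefers Gq subunits, had 1.51 to 1.65 on crECM and 1.57 and 1.59 on plastic (0.02, standard error 0.11), and RGS3 and RGS18 were not called (-0.51 and -0.10). The RZ-class members RGS17, RGS19 and RGS20, and RGS22, were not called, with log2 changes of -0.68, 0.18, -0.01 and 0.24.

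Several of the higher members are known from blood cells or photoreceptors, and markers of these cells were measured on the same arrays. Among all named genes tested, 24.2% were higher and 20.1% lower. Of 10 tested blood cell markers, 3 were higher, among them CD3E (log2 change 2.64) and CD3D (1.67), and 2 were lower, HBA1 (-0.73) and HBB (-0.69). Their summed level was 258 to 335 SD on crECM, and 239 and 241 SD on plastic. PTPRC, the pan-leukocyte marker, was not called (-0.22), and none of the 10 was at the lowest value on all arrays. Of 16 tested phototransduction genes outside the members, 7 were higher, led by PDE6B (2.45) and PDE6G (1.89), and 2 were lower, GRK7 (-0.77) and PDE6H (-0.66), with sums of 383 to 486 SD on crECM, and 302 and 312 SD on plastic. HBA1 and PDE6H were under 3 SD on 8 and 9 of the 9 crECM arrays, so the floor limits their changes. The part of these marker genes in the changes of the members was not tested.

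Within the time course, the 12 h array was set against days 1 to 9 in the same model, and the single 12 h array was assumed to vary like the other groups, so that the p-values hold no spread of its own. This array had the lowest median raw intensity on crECM (224), and the slope of deposited on raw log10 values was 0.94 at 12 h, against 0.91 on day 7 and 1.13 to 1.29 on the other days, and the part of this in the calls was not tested. Of 51 tested members, 7 were higher at 12 h (13.7%, against 3.27% of named genes) and 2 were lower (3.92%, against 2.51%). GNB3 differed most, with 2.08 at 12 h, against 1.53 to 1.74 on the later days and 1.59 and 1.53 on plastic (log2 difference 1.52, standard error 0.19, adjusted p = 0.0014). GNA15 had 1.71 at 12 h, against 1.10 to 1.37 later (1.44, standard error 0.30, adjusted p = 0.02), and ranked at percentile 95.0 of its array at 12 h and between 28.1 and 50.5 later. The main GNAO1 probe had 1.88 at 12 h, against 1.47 to 1.63 later (1.13, standard error 0.15, adjusted p = 0.0019), while its second probe had 1.46 at 12 h and was not called (-0.24).

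Smaller differences were called for RGS8, GNA13, GNG4 and GNG12. RGS8 had 1.91 at 12 h, against 1.66 to 1.74 later (0.73, adjusted p = 0.0065), while its second probe had 1.13 at 12 h, against 0.88 to 1.41 later, and was not called (-0.44). GNA13 had 1.70, against 1.38 to 1.57 later, and 1.43 and 1.48 on plastic (0.71, adjusted p = 0.037). GNG12 had 1.73, against 1.55 to 1.61 later (0.48, adjusted p = 0.027), and GNG4 had 0.64, against -0.05 to 0.56 later (0.51, adjusted p = 0.019), a call that was lost under 5 of 7 alternatives. RGS3 and RGS22 were lower at 12 h. RGS3, an R4-class member, had 1.10 at 12 h, against 1.35 to 1.53 later, and 1.54 on both plastic arrays (-1.07, standard error 0.19, adjusted p = 0.0092). RGS22, known from testis, had 1.30, against 1.39 to 1.56 later, and 1.38 and 1.43 on plastic (-0.69, adjusted p = 0.047). The second RGS3 probe was not called (-0.44), and the second GNG7 probe was lower at 12 h (-1.37, adjusted p = 0.0077), whereas the main GNG7 probe was not called (0.20). GNB3 and RGS3 kept their 12 h call under all 7 alternatives. GNA13, GNB3, GNG12 and the main GNAO1 probe were thus above both plastic arrays at 12 h, whereas their later values overlapped those on plastic.

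**Figure D5:**
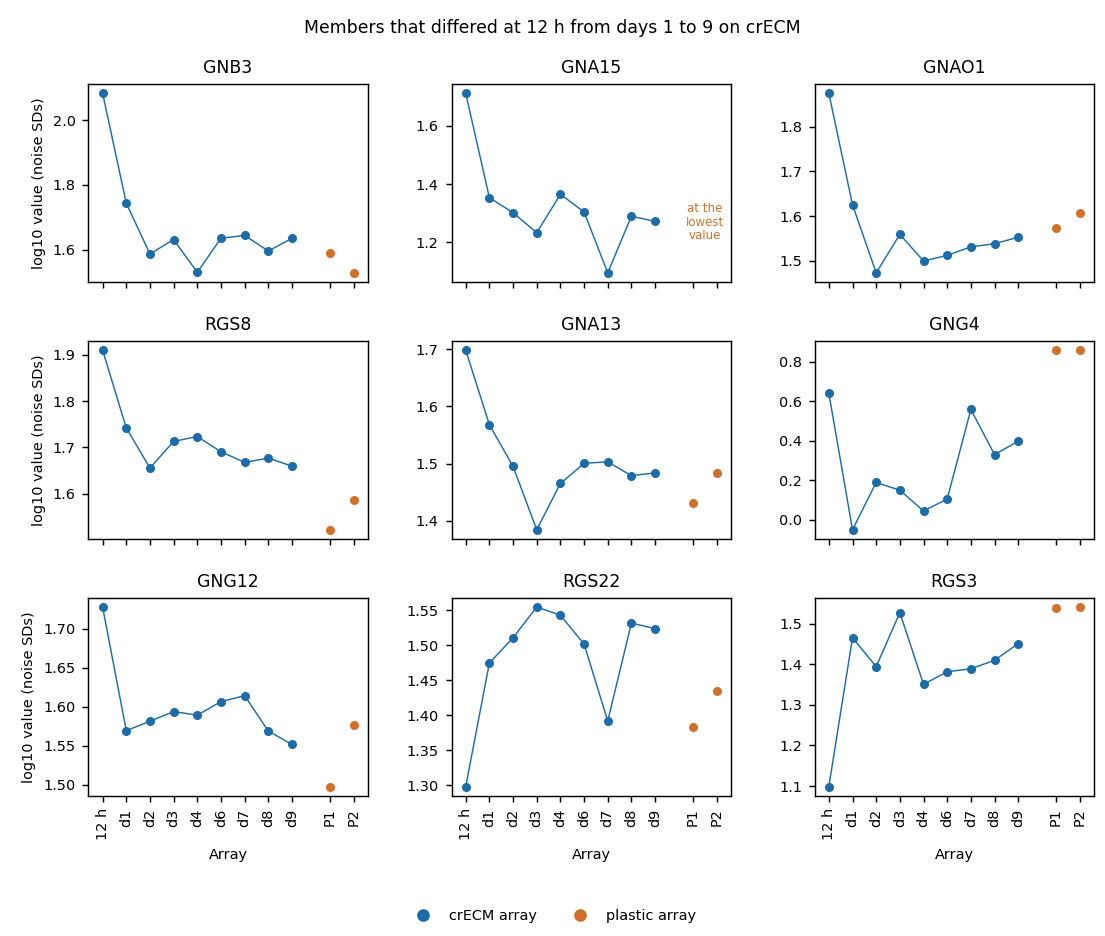
Deposited log10 values (noise SDs, y axis with its own range in each panel) of the 9 members that differed at 12 h from the later days, on crECM arrays in order of time (blue) and on plastic (orange). GNB3, GNA15, GNAO1, RGS8, GNA13, GNG4 and GNG12 are highest on crECM at 12 h, and RGS3 and RGS22 lowest.

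No member was called for a trend over the log2 of the day on crECM after adjustment by limma (0 of 51), and 5 had an unadjusted p under 0.05, against 8.71% of named genes. These were GNA13, GNA15, GNAO1, GNB3 and RGS8, which are among the genes that differed at 12 h, and without the 12 h array 1 member was left at that level.

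Genes up- and downstream of the G proteins were read from fixed lists, given as counts. Each count, here and in the lists that follow, stands against 24.2% higher and 20.1% lower among all named genes tested. Of 9 adenylyl cyclases, which make cAMP, 4 were higher, led by ADCY8 (at least 3.95-fold, log2 change 1.98) and ADCY2 (1.48), and 2 were lower, ADCY4 (-1.34) and ADCY1 (-1.11). The median change of the list was 0.44. Of 7 genes for phospholipase C beta, the effector of Gq, and for IP3 receptors, the calcium channels that act after it, 0 were higher and 3 were lower, PLCB1 (-0.60), ITPR1 (-0.71) and ITPR2 (-0.46), with a median of -0.27. ADCY4 and ITPR2 were under 3 SD on all 9 crECM arrays and ITPR1 on 5 of them, so the floor limits these changes.

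KCNJ5, a potassium channel opened by beta and gamma subunits, was off-on and at least 6.56-fold higher (log2 change 2.71, adjusted p = 3.5e-07), the only gene called of 3 such channels tested. Of 5 receptor kinases tested, GRK2 (0.65) and GRK6 (0.34) were higher and 0 were lower. Of 7 chaperones and modulators of G proteins, RIC8A, a chaperone of alpha subunits, was lower (-0.41) and 0 were higher. Among 5 proteins with an RGS-like domain, AXIN1 was higher (0.73) and AXIN2 lower (-0.79).

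Of 39 receptors known in urothelium, 14 were higher and 5 were lower, with a median change of 0.32, against 24.2% and 20.1% of all named genes. Among the higher receptors the largest changes were those of P2RY1, a Gq-coupled receptor for ADP (at least 4.83-fold, log2 change 2.27), and ADRB1, a Gs-coupled adrenergic receptor (2.27). Among the lower ones they were those of BDKRB2, the bradykinin receptor (-1.35), and ADRA1A, a Gq-coupled adrenergic receptor (-1.20). BDKRB2 and ADRA1A were under 3 SD on all 9 crECM arrays. Off-on were 5 of the 39, P2RY1, ADRB1, CHRM4, ADRA1D and S1PR4, against 3.96% of all named genes. Of these, ADRB1 and ADRA1D were above 3 SD on plastic replicate 1 (0.61 and 1.23) and at the lowest value on plastic replicate 2, and ADRA1D overlapped between the groups and was not called (adjusted p = 0.064). Olfactory receptors, whose G protein holds GNAL, were listed as genes not expected in these cells. Of 36 tested, 1 was higher and 18 were lower, with a median of -0.49, against 24.2% and 20.1% of all named genes. Whether what lowered these probes also bears on the lower calls of the members was not tested.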

How the data were processed

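RNA of RT4 cells on crECM (9 arrays) or plastic (2 arrays) was measured on one-color spotted arrays of long oligonucleotides. For every array the authors deposited the raw intensity of each spot, and in addition a joint table of log10 values. To make that table, by the methods, the authors divided intensities above the zero point by the SD of the noise peak, took log10 and brought the arrays to a common scale with robust linear regression. The software for spot quantification and background subtraction is not given in the sources used here. The deposited log10 table was not scaled again, and of 602 member values above 3 SD, 0 differed by more than 0.1 from the values of probes with like raw intensity.

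Genes were named from the platform annotation (17043 probes with 1 symbol, 172 with several, 5249 with none) and RefSeq. For a gene with several probes, the probe with the highest mean was used. A floor of 3 SD was applied, and limma 3.58.1 in R 4.3.3 (lmFit, eBayes with trend) was fitted to log2 values of 21480 probes that exceeded 3 SD on 2 or more arrays, with Benjamini-Hochberg adjustment over all of them. The fit was tested on simulated data made only from probes above the floor on every array, with equal spread in both groups. That test therefore does not cover members with a group at the floor. A fold is a lower bound where an array of the lower group is under 3 SD. Where a whole group is at the floor it has no spread, and standard errors are small.

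The members, gene lists, tests and the rule for genes given with values were chosen with earlier results of these data known. Values per array are given for members that were off-on, called at a log2 change of 1 or more without overlap, called at 12 h, or among the highest means of a family. For values rebuilt from raw intensities, the zero point was the mode of a kernel density and its SD came from the lower side. The low region on plastic has more than 1 peak, so this estimate depends on the bandwidth. Other alternatives were quantile normalization of the raw intensities, other floors and filters, array weights, the mean of all probes of a gene, and leaving out each plastic array or the 12 h array. Precision is limited by the number of arrays. Python 3.11.15 with pandas 2.3.3 was used for counts.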

Additional observations from a re-analysis of the deposited data

Results flagged for a closer look

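Among the 9 crECM arrays, 13 of 50 members had 1 value far from the other 8 (gap to the nearest value, relative to the range, above Dixon's 95% limit), where chance flags about 1 in 20 groups. On the same arrays 21.9% of 13998 named genes had such a value. The 12 h array gave it for 7 of the 50 members and for 6.69% of the named genes. At 12 h, GNB3 had a log10 value of 2.08 (others 1.53 to 1.74), GNAO1 1.88 (1.47 to 1.63), RGS8 1.91 (1.66 to 1.74), GNG12 1.73 (1.55 to 1.61), GNA15 1.71 (1.10 to 1.37) and GNG4 0.64 (0.48, the floor, to 0.56), and RGS3 had 1.10 (1.35 to 1.53). These 7 were also called at 12 h. At day 7, RGS7 had 0.60 (1.14 to 1.33) and RGS12 0.57, with the others tied at the floor of 0.48, so that any value above it is far from them. GNAS had 1.10 at day 4 (1.44 to 1.70), GNB1 1.50 at day 3 (1.57 to 1.63), GNG2 1.50 at day 9 (1.31 to 1.40) and RGS4 1.63 at day 8 (1.45 to 1.53).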

How the results depend on the processing

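The counts of members called depended on the scaling and on the plastic arrays. For 16 higher members the count was 40 without the regression step, 10 after quantile normalization and between 9 and 12 when a plastic array was left out. For 12 lower members it was 6 with rebuilt values, 0 without the regression step, 5 after quantile normalization, 6 with array weights and between 4 and 5 when a plastic array was left out. The 5 off-on members became 1 with rebuilt values, 4 without the regression step, 0 after quantile normalization and 3 when every array had to pass the threshold, and the 9 members that differed at 12 h became 5 without the regression step. The 0 on-off members, 0 trends and 50 expressed members stayed the same or within 1.5 times under the alternatives run for them. The cause was not tested.

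For the 19 members with values per array, 200 of 226 log2 changes under alternatives kept direction and call, 4 were no longer called (RGS8), 10 were newly called and 12 turned sign. Without the regression step, where the median change of all probes was 1.27, against 0.06, GNAO1 had 1.13, GNGT2 1.15, GNB4 0.32 and RGS3 0.80. With rebuilt values GNAO1 had 0.034, GNGT2 0.086 and RGS5 -0.10, and after quantile normalization GNAO1 had 0.058 and GNGT2 0.069. With the mean of all probes GNA13 had -0.34 and GNAO1 0.55, and GNGT2 had between -0.27 and 0.23 when a plastic array was left out. Of these, GNB4 alone had been called. No paired analysis was possible because each time point was a single crECM array and the labels match none of them to a plastic array. GNG4 could not be fitted under 2 of 12 alternatives, since too few arrays passed the filter, and GNAT3 not when a plastic array was left out.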
